A study of Mus musculus with 20 samples.

Results

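On mouse chromosome 4, the stretch from 145 to 148.5 Mb (GRCm38) held 485 of the 102373 accessible regions in the merged ATAC-seq list of this study. These peaks are described here as a group, against the 6578 peaks on the rest of chromosome 4. The stretch contains the zinc finger genes Zfp988, Zfp992 and Zfp981, and every listed peak that starts and ends inside it was taken as a member. The stretch was selected on the same peak list, for the long runs of neighbouring peaks in it, so the number and spacing of its peaks are given as a description and support nothing.

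ATAC-seq measures open chromatin, in which a transposase can insert sequencing adapters. The libraries came from ZHBTc4 mouse embryonic stem (ES) cells that carried lentiviral YPet-MD, a fluorescent protein on the Cyclin B1 mitotic degron, and either SNAP-MD-OCT4 or SNAP-MD*-OCT4, whose degron is mutated. Both OCT4 constructs were driven by a weak PGK promoter, and cells were sorted for a narrow range of SNAP signal. In 16 libraries, endogenous Pou5f1, which encodes OCT4, had been shut off through its Tet-Off promoter by doxycycline (dox, 1 µg/ml) for 40 h. These were sorted by phase, early or late G1, S, or late S/G2, with 2 replicates for each construct and phase, and the 4 remaining libraries of the 20 were unsorted cells of both constructs without dox. The list merges the peaks of the dox-treated libraries into 1 set of coordinates, so a region open in 1 library and a region open in all of them count alike. It carries no signal, depth or value per library. The constructs, the phases and the replicates therefore could not be compared, the identity of the cells could not be checked against marker genes, and no p-value is given.

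C2H2 zinc finger proteins bind DNA through tandem fingers, each folded around a zinc ion that is held by a pair of cysteines and a pair of histidines. Many of them also carry a KRAB domain, which recruits the corepressor TRIM28 and, through it, machinery for repressive histone methylation, and several of them are known to silence retrotransposons in ES cells. Their genes lie in clusters that grew by repeated local duplication, so neighbouring genes often resemble each other in exons, introns and promoters alike. For such sequence, a short read can match several places in the genome.

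Of the 485 peaks, 171 (35.3%, 95% Wilson interval 31.1 to 39.6) were copies of at least 1 other member, with 90% identity or more over at least 80% of the shorter peak. They fell into 49 families of similar sequence, and the remaining 314 peaks had no such relative among the members. The 3 largest families are named F1 (17 peaks), F2 (17 peaks) and F3 (15 peaks). Within the zinc finger genes, F1 gathered mainly at the start, F2 mainly in the first few kb downstream of it and F3 far downstream, in or beyond the last part of the gene. The other chromosome 4 window of the same length with the most peaks (134500001 to 138000000) held 425 peaks, of which 0 were in families.

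The narrowest member of F1 shows the form of the family that lies a few kb downstream of the starts. It lay in an intron of Zfp987, 4311 bp downstream of the gene's start, and is printed here with copies from 3 other genes, 1 of them inside a listed peak and 2 outside. Capitals mark bases that differ from the first line or are inserted relative to it, and missing bases are not shown. The copies differed from the Zfp987 sequence at 8 to 10 positions of about 165, whether or not they lay in a listed peak.
Zfp987 (F1), chr4:146101527-146101691 (plus strand, narrowest member): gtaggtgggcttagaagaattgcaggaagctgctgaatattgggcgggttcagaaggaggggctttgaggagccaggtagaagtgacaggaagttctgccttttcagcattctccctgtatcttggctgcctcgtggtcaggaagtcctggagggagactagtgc
Zfp988 (F1), chr4:147310434-147310598 (plus strand, in a listed peak): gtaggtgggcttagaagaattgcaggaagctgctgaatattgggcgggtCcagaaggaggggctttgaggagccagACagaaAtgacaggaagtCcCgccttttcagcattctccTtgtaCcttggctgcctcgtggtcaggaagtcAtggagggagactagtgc
Zfp534 (F1), chr4:147698432-147698602 (minus strand, in no listed peak): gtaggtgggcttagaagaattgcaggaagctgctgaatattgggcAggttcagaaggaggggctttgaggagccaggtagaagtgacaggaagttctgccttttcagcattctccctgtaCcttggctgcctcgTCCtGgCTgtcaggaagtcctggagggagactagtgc
Zfp600 (F1), chr4:146160029-146160193 (plus strand, in no listed peak): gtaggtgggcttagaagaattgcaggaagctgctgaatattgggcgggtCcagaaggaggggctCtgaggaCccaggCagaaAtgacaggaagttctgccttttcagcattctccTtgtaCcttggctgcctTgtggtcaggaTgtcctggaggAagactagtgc

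F2 is shown next because its peaks recur downstream of many of the starts. Its narrowest member lay in an intron of Zfp985, 1029 bp into the gene, and the copies are marked in the same way. Peaks were joined by single linkage, so a peak can belong to F2 without holding this sequence. Only 6 copies of it in the stretch overlapped listed peaks, against 17 peaks in F2. The copies of Zfp980, Zfp989 and Zfp988 were nearly alike, but only those of Zfp980 and Zfp989 overlapped listed peaks. They did so only with their last part, since the peaks spanned 145671758 to 145671945 and 146972973 to 146973382. The label "in a listed peak" marks any overlap, and most of both printed copies lay outside the peaks.
Zfp985 (F2), chr4:147554236-147554376 (plus strand, narrowest member): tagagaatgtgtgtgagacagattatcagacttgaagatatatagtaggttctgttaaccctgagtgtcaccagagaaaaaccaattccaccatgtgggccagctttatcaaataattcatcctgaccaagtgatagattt
Zfp980 (F2), chr4:145671662-145671797 (plus strand, in a listed peak): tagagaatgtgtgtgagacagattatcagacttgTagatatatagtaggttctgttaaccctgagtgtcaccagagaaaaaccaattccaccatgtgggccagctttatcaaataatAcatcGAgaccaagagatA
Zfp989 (F2), chr4:146972881-146973016 (plus strand, in a listed peak): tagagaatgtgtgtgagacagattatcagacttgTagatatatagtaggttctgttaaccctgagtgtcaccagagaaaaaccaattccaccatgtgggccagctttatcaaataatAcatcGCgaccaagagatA
Zfp988 (F2), chr4:147307252-147307387 (plus strand, in no listed peak): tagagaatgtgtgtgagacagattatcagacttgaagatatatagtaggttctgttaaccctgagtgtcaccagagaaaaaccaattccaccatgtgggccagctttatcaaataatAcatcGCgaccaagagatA
Zfp990 (F2), chr4:145511913-145512053 (plus strand, in no listed peak): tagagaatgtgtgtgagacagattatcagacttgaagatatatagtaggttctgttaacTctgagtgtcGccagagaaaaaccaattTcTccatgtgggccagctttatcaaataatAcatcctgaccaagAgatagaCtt

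Among the 3 largest families, F3 is the one that reached into coding sequence, and 4 of its 9 peaks assigned to Zfp genes were centred in a coding exon. Its narrowest member lay in the coding exon of Zfp988, 26651 bp downstream of the start. Copies of it are shown from Zfp990, where a peak was listed, and from Zfp984 and Zfp987, where none was.
Zfp988 (F3), chr4:147332256-147332394 (plus strand, narrowest member): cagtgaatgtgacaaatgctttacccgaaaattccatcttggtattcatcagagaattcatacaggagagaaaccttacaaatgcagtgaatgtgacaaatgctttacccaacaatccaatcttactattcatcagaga
Zfp990 (F3), chr4:145537328-145537465 (plus strand, in a listed peak): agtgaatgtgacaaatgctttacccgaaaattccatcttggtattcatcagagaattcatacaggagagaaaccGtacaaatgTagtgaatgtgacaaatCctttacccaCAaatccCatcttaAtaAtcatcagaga
Zfp984 (F3), chr4:147754947-147755084 (minus strand, in no listed peak): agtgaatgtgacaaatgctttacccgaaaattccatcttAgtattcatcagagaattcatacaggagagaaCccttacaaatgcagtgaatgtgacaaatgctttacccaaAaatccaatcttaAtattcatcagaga
Zfp987 (F3), chr4:146125061-146125199 (plus strand, in no listed peak): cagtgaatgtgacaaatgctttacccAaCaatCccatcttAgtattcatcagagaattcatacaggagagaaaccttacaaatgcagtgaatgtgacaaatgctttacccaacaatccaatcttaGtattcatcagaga

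The accessible sequences nearest to the starts of the 3 genes that define the stretch are shown with CpG dinucleotides in capitals. The peaks at Zfp988 (chr4:147305105-147306691) and Zfp981 (chr4:146501855-146502374) overlapped the start, and both belonged to F1. For Zfp992 the nearest peak (chr4:146447006-146447336) was 1687 bp away. The central 200 bp are given for Zfp988 and Zfp992, and for Zfp981 the nearest 200 bp to the centre that hold no untranslated exon. Only the Zfp988 stretch held CpGs, 2 of them.
Zfp988 start, chr4:147305798-147305997 (plus strand): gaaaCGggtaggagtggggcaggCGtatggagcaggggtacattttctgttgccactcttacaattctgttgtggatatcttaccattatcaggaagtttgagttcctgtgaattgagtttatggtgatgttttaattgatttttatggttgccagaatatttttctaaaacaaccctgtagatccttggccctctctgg
Zfp992 start, chr4:146447071-146447270 (plus strand): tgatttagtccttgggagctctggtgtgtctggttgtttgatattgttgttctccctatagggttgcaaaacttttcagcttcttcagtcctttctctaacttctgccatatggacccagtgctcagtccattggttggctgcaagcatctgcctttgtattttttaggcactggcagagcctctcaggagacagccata
Zfp981 start, chr4:146502145-146502344 (plus strand): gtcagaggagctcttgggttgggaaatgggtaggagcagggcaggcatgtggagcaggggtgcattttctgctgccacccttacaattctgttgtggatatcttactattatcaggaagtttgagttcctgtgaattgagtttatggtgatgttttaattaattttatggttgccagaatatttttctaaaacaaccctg

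The 485 peaks lay in 3.07 Mb of gap-free sequence, that is 158 peaks per Mb (exact Poisson 95% interval 144 to 173), against 44.2 per Mb on the rest of chromosome 4. They covered 8.42% of the bases, against 2.39%. A fixed grid of 3.5-Mb windows gave 43 other windows on chromosome 4 to compare with, which held from 6.57 to 121 peaks per Mb. Neighbouring members were separated by a median of 1994.5 bp (1505 to 2537), and neighbouring peaks elsewhere on the chromosome by 7211 bp. The first member spanned 145009569 to 145009784 and the last 148496340 to 148496771. Just outside lay peaks at 144999899 to 145000320, which straddles the lower limit, and at 148558109 to 148559369.

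Between the first and the last Zfp gene (145510759 to 147848366) were 357 of the peaks, at 187 per Mb. The flank before the first Zfp gene held 66 peaks at 129 per Mb, and the flank after the last held 62 at 95.1 per Mb. Per 100 kb, the highest counts were 43 and 37 peaks in the bins just before and around the start of Zfp988, 39 in the next one, and 37 in the bin with Zfp992. Bins without any peak lay in assembly gaps, of which the stretch held 6 with 431871 bp in all. The plot of peaks along the stretch shows these maxima and the sparse parts between them.

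**Figure D1:**
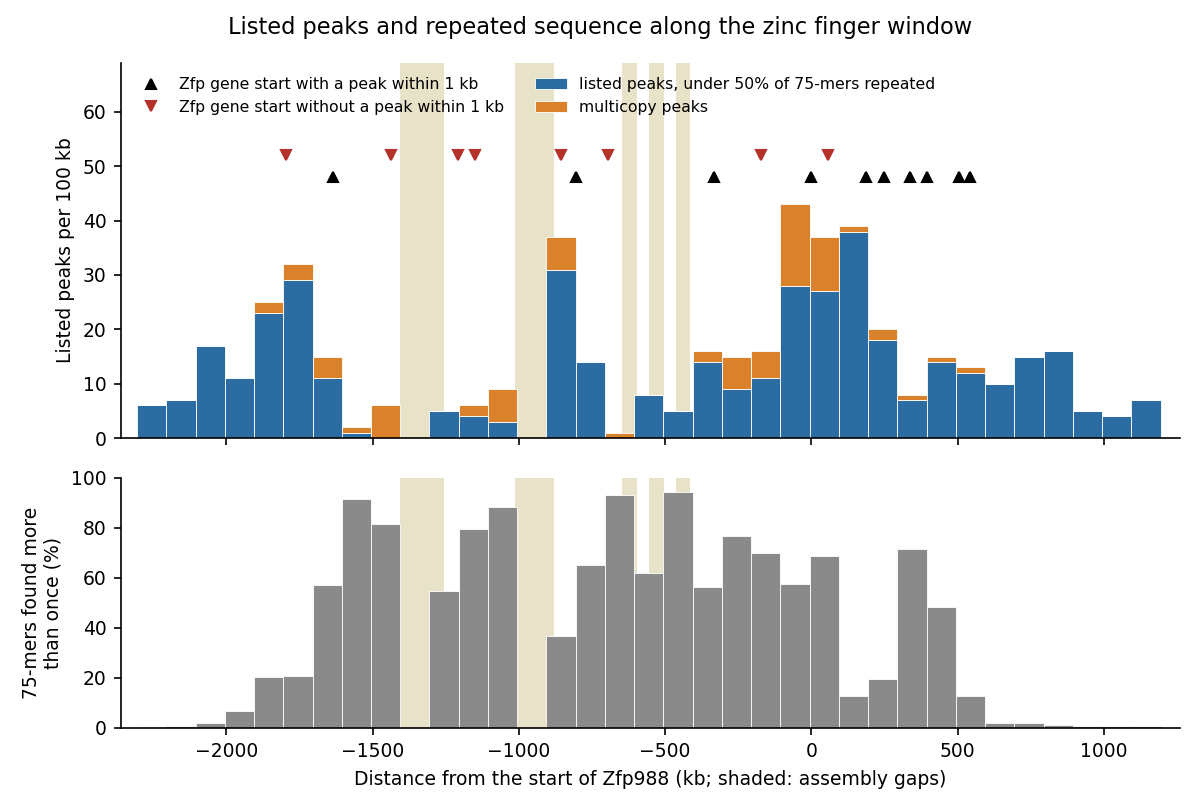
Listed peaks per 100 kb (top) and the share of 75-mers found more than once in the genome (bottom) against the distance from the Zfp988 start in kb. Orange marks multicopy peaks, triangles mark Zfp gene starts with (black) or without (red) a peak within 1000 bp, and shading marks assembly gaps. Bins with the most repeated sequence, up to 94.2%, held few peaks, and 73 of the 75 multicopy peaks lay between the first and the last Zfp gene.

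In 11 runs of at least 10 peaks, with gaps of at most 10000 bp, lay 299 peaks (61.6%). The longest run by count, 73 peaks around Zfp988 (147229920 to 147354964), had a median gap of 518 bp, and 44.4% of its bases were covered. Its median width was 572 bp, 17 of its peaks were at least 1000 bp wide, and 33 of them (45.2%) belonged to a family. The run of 43 peaks with Zfp992 and Zfp981 (146425531 to 146514562) had a median gap of 684 bp and covered 21.6%. A run of 34 peaks lay over Zfp990 and Gm13212 (145512822 to 145606323). Another, of 32 peaks, began in Zfp978 (147387638 to 147462387). The fifth run was of another kind: 28 peaks over genes that include Clcn6, Agtrap, Draxin, Mad2l2, Fbxo6, Fbxo44 and Fbxo2 (148038380 to 148174382), a gene-dense part beyond the last Zfp gene, with a median gap of 4448 bp and a median GC content of 56.4%. At Zfp988 24 of the 73 peaks were multicopy as defined below, and at Zfp992 and Zfp981 6 of 43, whereas the Zfp978 and Clcn6 runs held 0.

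To ask how much of this sequence a read could be placed in, every 75-mer of the peaks, the read length of the study, was counted in chromosomes 1 to 19, X and Y. A peak was called multicopy when at least 50% of its 75-mers occurred more than once. This held for 75 members (15.5%, 12.5 to 18.95), against a background of 0.426% on the rest of chromosome 4 (28 peaks). The other 43 windows ranged up to 8.0%, so each lay below the zinc finger stretch and below its interval. The multicopy peaks were 73 of the 357 between the first and last Zfp gene, 2 of 66 in the flank before and 0 of 62 in the flank after, where a count of 0 allows up to 5.83% by the Wilson method. The copies were local. Of the repeated 75-mers in the members, 89.4% had every copy inside the stretch, and 94.4% had at least 1 other copy there.

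Most members nevertheless held sequence found nowhere else. Over all members 18.2% of 75-mers were repeated (1.03% on the rest of chromosome 4), and 197 peaks (40.6%) had no repeated 75-mer, against 93.2% elsewhere on the chromosome. The listed peaks were also less repeated than the ground they lay in, since 38.8% of all 75-mers of the stretch were repeated. Between the first and last Zfp gene, the 100-kb bins with under 50 kb of gaps were grouped by this share. The 6 bins with under 50% repeated 75-mers held a median of 260 peaks per Mb (130 to 496). The 10 bins between 50% and 80% held 150 (60 to 430), and the 4 bins above 80% held 40.0 (17.1 to 96.3). The groups overlapped in range, but the upper end of the most repeated bins was below the lower end of the least repeated. The methods of the study do not say how reads with several matches were treated, and their part in where peaks were listed was not tested.

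Soft-masked sequence, marked as repeated in the reference, made a smaller difference than local copies. It can include the local copies themselves, since the narrowest F3 peak, in the coding exon of Zfp988, was 85.6% soft-masked. Interspersed repeats were therefore not counted apart from local copies. At least 50% of the bases were soft-masked in 93 members (19.2%, 15.9 to 22.9), against a background of 10.7% on the rest of the chromosome, and 12 of the 43 other windows had a higher share. The median soft-masked share per peak was 17.6% (15.1 to 19.8), compared with 10.2% (9.79 to 10.6) elsewhere on chromosome 4. Both lay below the sequence of the stretch as a whole, of which 35.04% was soft-masked.

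The base composition of the members was close to that of the sequence around them. Their median GC content was 43.3% (order-statistic interval 41.8 to 44.0), and the assembled sequence of the stretch had 42.9%. On the rest of chromosome 4 the peaks had a median of 51.3% (51.0 to 51.5), although the chromosome as a whole had 42.3%. All 43 other windows had a higher median, the lowest at 43.8%, within the interval of the zinc finger stretch. Between the first and last Zfp gene the peaks had 40.5% (39.6 to 41.5) and the sequence 40.2%, whereas the peaks of the flank after the last Zfp gene had 54.1% (52.0 to 56.6). Leaving out the multicopy peaks gave 43.5%. Members were also narrower, with a median of 363 bp (321 to 398) against 423 bp (412 to 434). Widths ran from 137 bp to 3841 bp, the widest at 145446771 to 145450611 over a pseudogene, and 12 of the other windows had a lower median. The plot across windows shows these measures side by side.

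**Figure D2:**
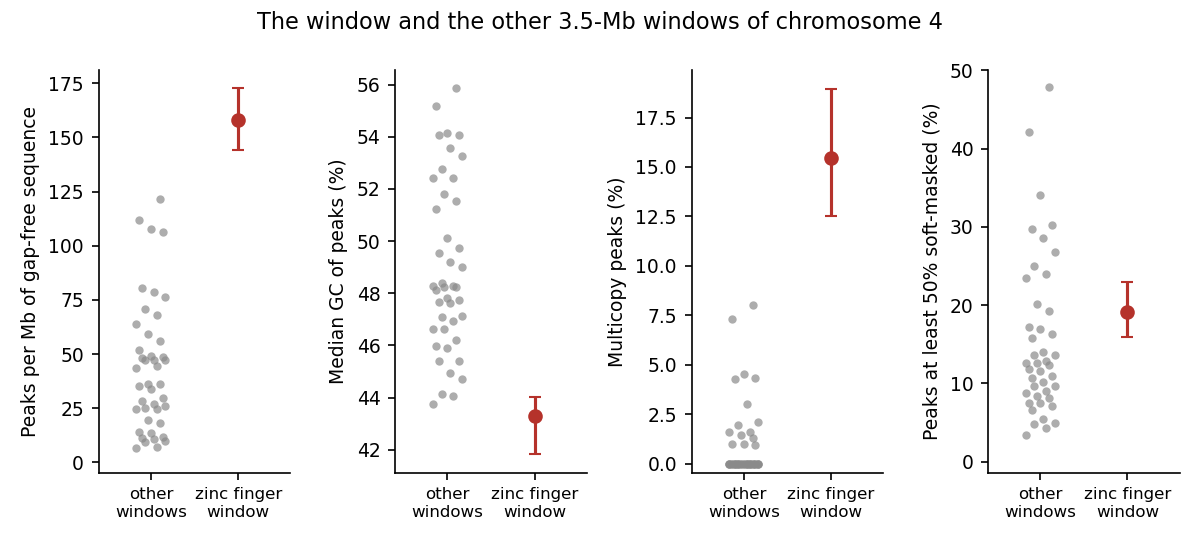
Peak density, median GC content, share of multicopy peaks and share of mostly soft-masked peaks in the zinc finger window (red, with 95% interval) and in the 43 other 3.5-Mb windows of chromosome 4 (grey, 1 point each). The window lay outside the range of the others in density (158 per Mb), GC content (43.3%) and multicopy share (15.5%), but inside it for soft-masked peaks (19.2%).

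The plot of GC content against repeated sequence shows the members one by one. The 197 peaks with no repeated 75-mer had a median GC content of 47.1% (28.0 to 71.3), and the 288 with at least 1 had 40.6% (24.7 to 70.2), so the groups overlapped over nearly their whole range. Of the 288, 26 had a GC content of at least 54%, and 11 of these 26 were the members of 2 families, F6 and F8, which are described further on.

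**Figure D3:**
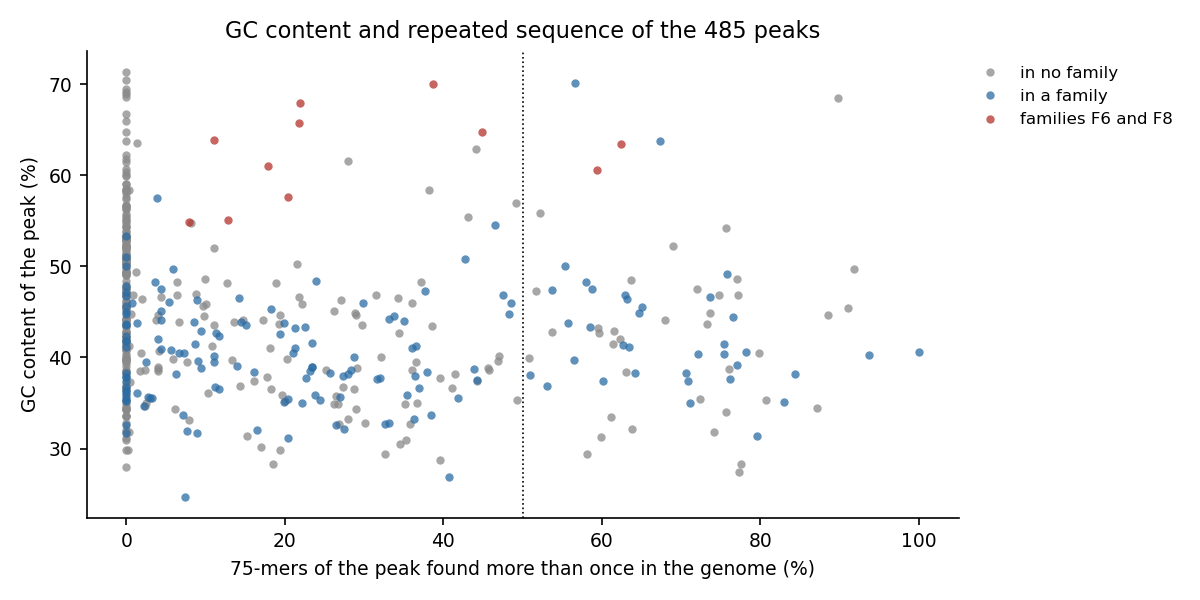
GC content of each of the 485 peaks against the share of its 75-mers found more than once in the genome. The dotted line marks the multicopy limit of 50%, and the red points, families F6 and F8, have a GC content from 54.8% to 70.0%.

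Promoter-proximal peaks, within 1000 bp of any annotated TSS, made up 102 of the 485 (21.0%, 17.6 to 24.9). The background on the rest of chromosome 4, 23.9%, lay within this interval. In this stretch, GENCODE placed the starts of 63 pseudogenes and 19 non-coding RNA genes next to 43 protein-coding genes, 18 of which had a Zfp symbol. With only protein-coding transcripts, the proximal share fell to 9.28%, against 17.3% elsewhere on the chromosome.

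By the position of their centres, 171 members (35.3%) lay in introns of non-coding genes, against 2.72% of peaks on the rest of chromosome 4, and 29 (5.98%) in pseudogenes, against 0.304%. Introns of protein-coding genes held 28.5% (43.3% elsewhere), and intergenic sequence 20.8% (38.1%). In the annotation, 4 non-coding genes of over 100 kb span much of the stretch, including many Zfp genes. Gm26573 extends over 872 kb and contained 95 peaks, C230088H06Rik over 474 kb with 145 peaks, Gm26624 over 321 kb with 112 peaks, and Gm26763 over 110 kb with 15 peaks. The same peak can count for more than 1 of them, because these genes overlap each other.

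Not all zinc finger genes of the cluster had a peak at their start. Of the 18 Zfp genes, 10 (55.6%, Wilson interval 33.7 to 75.4) had a listed peak within 1000 bp of a TSS. The other protein-coding genes of the stretch had one in 22 of 25 cases (88.0%, 70.0 to 95.8), and all protein-coding genes on the rest of chromosome 4 in 943 of 1284 (73.4%). Zfp genes elsewhere were also marked, since all 86 in the 5 other 3.5-Mb windows of the genome with the most Zfp genes had one (95.7 to 100), as did 353 of 376 outside the stretch (93.9%). On the rest of chromosome 4 alone, 10 of 12 Zfp genes had one (83.3%, 55.2 to 95.3). The interval for the cluster lay below those of the 86 and the 376 genes, but it overlapped those of the 12 genes and of its own neighbours. Genes within the cluster share sequence and are not independent of each other, and no test was made over them.

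The Zfp genes with a peak were Zfp980, Zfp981, Zfp989, Zfp988, Zfp982, Zfp985, Zfp979, Zfp534, Zfp984 and Zfp933. At Zfp988 the peak was 1587 bp wide with a GC content of 42.5%, and 19.4% of its 75-mers were repeated. Zfp985 had a peak of 1262 bp (GC 42.1%, 3.96% repeated) and Zfp933 one of 1064 bp (46.7%, 0% repeated). The narrowest were at Zfp534, 167 bp, and Zfp979, 179 bp. The latter had the most repeated sequence of the 10, at 88.6%. Zfp981, with 520 bp and 8.97% repeated, lay between them.

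The 8 without one were Zfp990, Zfp986, Zfp987, Zfp600, Zfp992, Zfp993, Zfp991 and Zfp978. For Zfp600 the nearest listed peak was 1061 bp away, for Zfp990 1315 bp, for Zfp991 1560 bp and for Zfp992 1687 bp, each measured to the nearest TSS of the gene, so these 4 were close to the limit. Distances at the other 4 ran from 4182 bp at Zfp987 to 6427 bp at Zfp993. The list holds no signal outside its peaks, so nothing was measured at these starts and they are not known to be closed.

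The sequence at these starts differed in how often it recurs. Within 500 bp of the start, a median of 75.4% of 75-mers were repeated for the 8 genes without a peak, from 16.2% at Zfp990 to 99.6% at Zfp993. For the 10 genes with a peak the median was 14.4%, from 0% at Zfp933 to 86.2% at Zfp979. The ranges overlapped. Of the 8 genes at 50% or more, 3 had a peak, and of the 10 genes below 50%, 7 did. In the 5 other windows with many Zfp genes the median was 0% and the highest value 39.4%. Because repeated starts cannot be read without knowing how multiply matching reads were handled, a difference in openness and a difference in mapping cannot be told apart here.

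Away from the starts, the gene bodies held from 0 peaks in Zfp986 and Zfp993 to 14 in Zfp984, with a median of 5. Per 10 kb the median was 1.62 peaks in the Zfp genes. It was 1.80 in the 25 other protein-coding genes of the stretch, which ranged up to 7.36. Zfp988 had 13 peaks over 28.1 kb, or 4.63 per 10 kb, which was the densest of the Zfp genes, followed by Zfp992 with 9 peaks over 21.3 kb (4.23 per 10 kb). Zfp981 held 12 peaks, Zfp985 10, Zfp990 9, Zfp980 8 and Zfp982 7. So Zfp992 and Zfp990, which had no peak at the start, were among the more densely marked Zfp gene bodies. Rex2, a zinc finger gene of the same cluster without a Zfp symbol, held 6 peaks over 38.9 kb and had its nearest 4541 bp from a TSS. Gm13212, with 20 finger motifs in its translated sequence the most of the 43 genes, held 8 peaks. Its only peak within 1000 bp of a TSS was 166 bp wide (145616755 to 145616920) and lay by an internal TSS, while the gene begins at 145585166.

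The promoter peaks of the 25 other protein-coding genes had a median width of 1014.5 bp and a median GC content of 62.9%, against 606.5 bp and 46.4% for the Zfp genes. Without Gm13212 and Rex2, which have fingers, the medians were 1028 bp and 63.5%. Mfn2, which encodes a mitochondrial fusion protein, had a promoter peak of 927 bp with a GC content of 62.2%, and Mtor, the kinase of the TOR complexes, one of 1102 bp with 58.4%. The peak at Mad2l2, a subunit of a translesion polymerase, was shared with Draxin and measured 1818 bp. Fv1, a retrovirus restriction gene, and Miip shared a peak of 853 bp. Nppb, which encodes a natriuretic peptide, had a peak of 813 bp, whereas for its neighbour Nppa the nearest was 1134 bp away. Nppa, Rex2 and Gm16503 were the 3 of the 25 genes without one. Among the 25, Vps13d held the most peaks in its body, 16, over 222 kb (0.719 per 10 kb), followed by Tnfrsf8 with 10 peaks, and Tnfrsf1b, a TNF receptor gene, held 6.

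The map of peaks along the Zfp genes shows how the families fall on them. F1 peaks were centred within 300 bp of the start in 7 genes, which were 7 of the 10 with a promoter peak. Further F1 peaks lay 3865 to 4839 bp downstream in Zfp980, Zfp987 and Zfp988. The remaining F1 peaks assigned to Zfp genes were off this pattern. They were centred at -4828 bp, upstream of Zfp986, at 12439 bp in Zfp981 and at 34176 bp in Zfp984. F2 peaks were centred 1029 to 3179 bp downstream of the start in 8 genes, 9 peaks in all, and 10045 to 11423 bp downstream in Zfp981, where there were 3. F3 peaks lay 26651 bp or more from the start in 6 genes, and 3 of these 9 peaks were centred beyond the annotated end of the gene. Of Zfp988, Zfp981 and Zfp985, each carried all 3 families. No peak at Zfp992, Zfp993, Zfp978, Zfp979 or Zfp933 was assigned to any of them. The Zfp979 start peak (147641992 to 147642170) did overlap part of a copy of the F2 sequence (147641922 to 147642062).

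**Figure D4:**
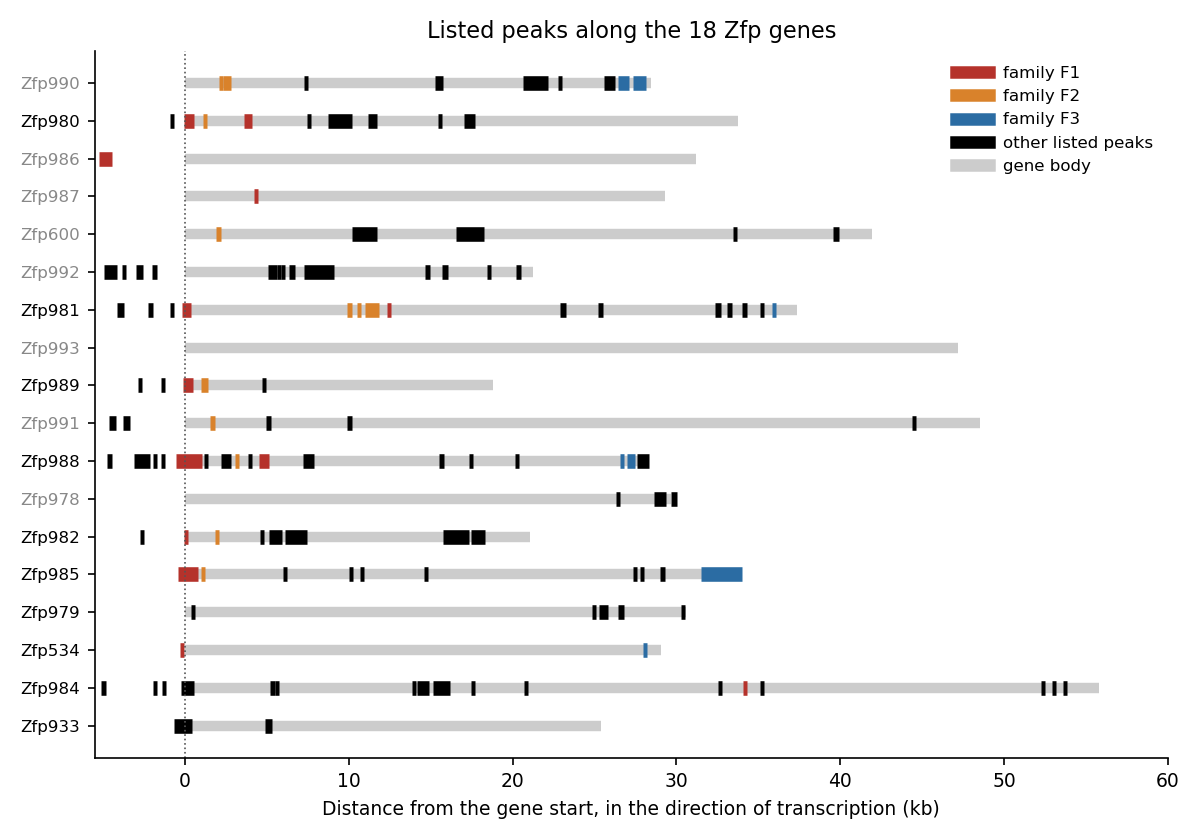
Listed peaks (coloured by family) along the 18 Zfp genes, with the gene body in grey and the distance from the gene start in kb along the axis, in the direction of transcription. Gene names in grey have no peak within 1000 bp of a TSS, and F1 (red) gathers at the start in 7 genes, F2 (orange) lies further downstream and F3 (blue) 26.7 kb or more from the start.

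In 6 of the 8 largest families, F1 to F5 and F7, the stretch also held copies that overlapped no listed peak. Copies were counted with the narrowest member as query, at 90% identity or more over 80% of its length, so at least 1 copy of each family is in a peak by construction. For F1, 4 of 14 copies overlapped a listed peak, for F2 6 of 16, and for F3 7 of 39. Several F3 copies can lie close together within a single gene, as in Gm13212 and Zfp988. The F3 counts, here and at 80% identity, are therefore of repeated units and not of genes. The F1 copies that overlapped the 7 peaks at gene starts were 85.3% to 89.6% identical to the query and are not among the 14. At Zfp534 only the ends overlapped, since the copy spanned 147702543 to 147702705 and the peak 147702691 to 147702857. At 80% identity 18 of 46 F1 copies overlapped a peak. F1 and F2 had 0 copies at 90% identity outside the stretch. F3 had 6, on chromosomes 3, 17 and 19, of which 2 overlapped a listed peak. At 80% identity F3 was far less confined to the stretch, with 147 copies inside it and 108 on other chromosomes. Of these 108, 15 overlapped a listed peak. At 90% identity the smaller families F4, F5 and F7 had 2 of 11, 4 of 12 and 4 of 6 copies in a peak.

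Copies inside and outside peaks were alike in composition, where inside means any overlap with a listed peak. Some of the copies counted as inside lay mostly outside. The F5 copy at 147582159 to 147582316, for example, met a peak that began only at 147582301. F1 copies had a median GC content of 52.7% inside and 53.0% outside, F2 copies 38.6% and 38.7%, and F3 copies 36.0% and 35.5%. How often the surrounding 75-mers recur was close for F1 (median 29.7% inside, 34.0% outside) and F2 (52.6% and 55.8%). It differed for F3, with 12.3% inside and 91.4% outside, and also for F4 (38.5% and 96.2%) and F5 (22.1% and 85.6%). In each of F3, F4 and F5 the ranges overlapped, since at least 1 copy outside peaks had under 1% repeated 75-mers. For F7 the order was the other way, 31.9% inside and 25.4% outside. The plot of family copies gives each value.

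**Figure D5:**
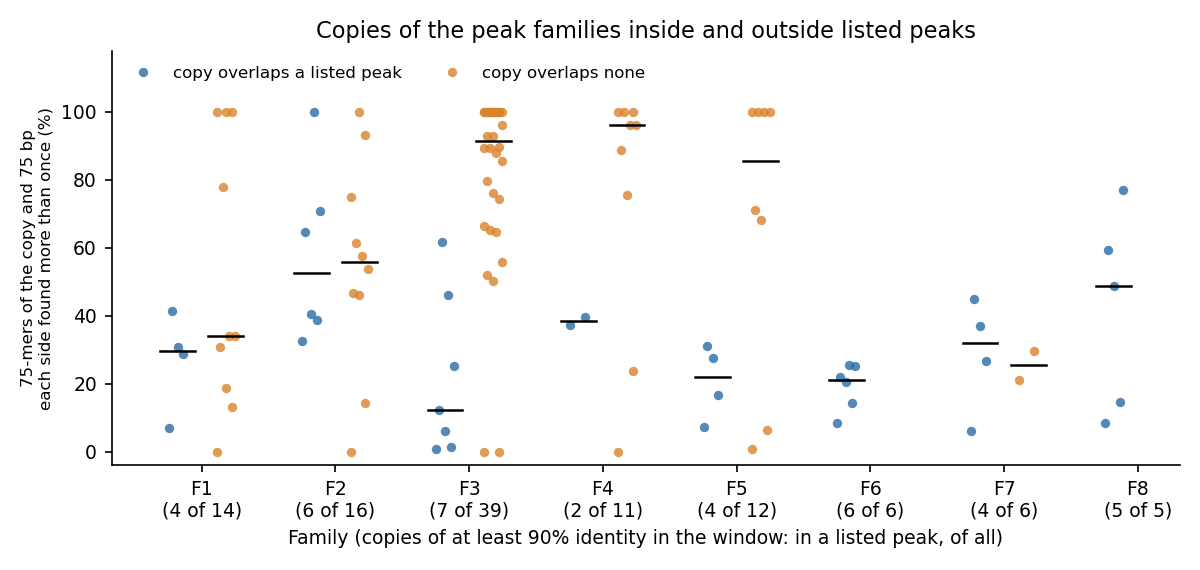
Share of 75-mers found more than once, for each copy of families F1 to F8 in the stretch with 75 bp on either side, split into copies that overlap a listed peak (blue) and those that do not (orange), with black bars at the medians. All copies of F6 (6) and F8 (5) were in peaks, and the F3 copies outside peaks had a median of 91.4% against 12.3% inside.

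F6 and F8 differed from the other large families in both respects. All 6 copies of F6 and all 5 of F8 overlapped listed peaks, and their GC content was high, 57.6% to 70.0% for the F6 peaks and 54.8% to 64.7% for the F8 peaks. These peaks were not at zinc finger genes. Each of the 11 had a pseudogene, processed or unprocessed, as its nearest annotated start, and all were within 101 bp of it. For F6 these were Smarca5-ps, Gm13231, Gm13034, Gm13140, Gm13135 and Gm13136. The F6 sequence had 1 copy outside the stretch, on chromosome 8 (80739183 to 80739503) at Smarca5, which encodes the ISWI chromatin remodeller SNF2H. It was 96.3% identical and overlapped a listed peak too. The F8 peaks overlapped the starts of Gm13243, Gm13168, Gm13240, Gm13162 and Gm13161, and this sequence had 0 copies elsewhere at this identity. At 80% identity both families had the same number of copies, inside and outside the stretch, as at 90%. Repeated 75-mers at the copies ran from 8.56% to 25.4% for F6 and from 8.44% to 76.9% for F8.

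Families were not confined to this cluster. In the window of chromosome 13 with the most Zfp genes of any other (24, 64500001 to 68000000), 50 of 167 peaks (29.9%) were in families, the largest of 18, and 17.4% of peaks were multicopy. That window held 47.7 peaks per Mb, against 158 here. In the window of chromosome 17 with 19 Zfp genes (19000001 to 22500000) the share was 8.70% of 115 peaks, at 32.9 peaks per Mb. The median GC content of its peaks was 42.4% (40.4 to 47.4), below the 43.3% of the stretch on chromosome 4. In the windows of chromosomes 13 and 7 this median was higher, from 48.2% to 54.3%. The 3 windows of chromosome 7 with 14 or 15 Zfp genes had between 0% and 2.34% of peaks in families, at 36.6 to 66.6 peaks per Mb.

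Since OCT4 is the factor the study manipulates, the members were searched for close matches to pluripotency and architectural motifs on both strands. The octamer of OCT4 (OCT, ATGCAAAT) was found in 17 members (3.51%, 2.20 to 5.54), against 2.45% of peaks on the rest of chromosome 4, and the SOX motif (CCATTGT) in 45 (9.28%, 7.01 to 12.2), against 8.63%. Both shares elsewhere lay within the members' intervals, and the direction did not hold in the central 200 bp of each peak for either motif (1.03% against 1.16% and 2.89% against 3.94%). The composite OCT4::SOX2 motif, which contains the octamer, had a match within 2 mismatches in 2 members (0.412%, 0.113 to 1.49), against 0.623%.

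Matches to the CTCF and KLF motifs were fewer than elsewhere. The CTCF motif, bound by the insulator protein CTCF and allowed 1 mismatch, occurred in 22 members (4.54%, 3.01 to 6.77), against 13.2% (12.4 to 14.1) on the rest of the chromosome. For KLF (CCACACCC), the box bound by KLF4 and its relatives, the shares were 5.36% (3.68 to 7.74) and 10.2% (9.52 to 10.99). In both cases the intervals did not overlap. For ESRRB (TCAAGGTCA), bound by an orphan nuclear receptor of the pluripotency network, they were 1.65% (0.838 to 3.22) and 3.22% (2.82 to 3.68), which overlapped. Per Mb of peak sequence, members held 89.0 CTCF matches against 254, 100.6 KLF matches against 212, and 81.3 OCT matches against 48.1, in the same orders as the shares. The lower GC content of the members moves with the CTCF and KLF shares, and its part in them was not tested.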

How the data were processed

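ATAC-seq libraries of sorted ZHBTc4 ES cells were processed by the authors. Paired reads of 75 nt were aligned to GRCm38 with STAR 2.6.1c, duplicates were removed with Picard, chromosomes 1 to 19, X and Y were kept, MACS (2.1.1.20160309) was run in paired-end mode, and its calls over the 16 dox-treated libraries were merged with BEDTools. The deposited file has 3 columns that locate every merged peak (chromosome, start, end), and no score or count. Depth is not given in the sources used here, nor is the treatment of reads with several matches. Filters on wide, input and blacklisted regions are described in the methods, but 7 peaks over 5000 bp were still listed.

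Coordinates are counted from 1. Genes were taken from GENCODE vM21 and sequence from the RefSeq release of the same build, and printed sequences are from the latter. Members and lists were chosen with earlier results of these data known. Zfp genes are protein-coding genes whose symbol is Zfp with a number. Since no protein table was used, coding sequences were translated for an alternative definition (at least 3 C2H2 matches). Exact 75-mers were counted on both strands. Peaks were aligned with blastn (BLAST+ 2.17.0) and joined by single linkage. Runs join peaks at most 10000 bp apart. Intervals are 95% Wilson, exact Poisson or order-statistic intervals. They cover counting error only and treat peaks as independent, which neighbouring copies are not. Named genes are those that define the stretch, up to 10 Zfp genes and up to 10 others with the most peaks in the body, and a short list that includes Fv1, Nppa, Nppb, Mfn2, Mtor, Mad2l2 and Rex2. Other genes are named where a count is split into its members. Named peaks are the first, last and widest member, the neighbours outside and the 5 runs with the most peaks. Families F4 to F8, of at least 5 peaks, were described after their values were seen, as were the choice of printed copies, the bins grouped by repeated sequence, the groups by GC content, the split of starts at 50% and the copies inside and outside peaks. The functions recovered all 17 planted values in simulated sequence. Tables were handled with pandas 2.3.3 and numpy 2.4.6, intervals computed with scipy 1.17.1 and figures drawn with matplotlib 3.10.9 (Python 3.11.15). The name of 1 gene in the stretch and 1 of the copies are not reported here.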

Additional observations from a re-analysis of the deposited data

How the results depend on the processing

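No paired analysis was possible because the merged list holds no value for any replicate, and for the same reason no library could be left out. Of 37 alternatives, 16 stayed within the interval of the reported value (for the number of peaks in families, within 1.5 times), 18 moved outside it with the same direction, and 3 reversed the direction against the rest of chromosome 4. The GC content without multicopy peaks and the finger genes by translated sequence were added after seeing the data, and neither moved its value.

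The reversals concerned motifs. In the central 200 bp the share of members with an OCT match was 1.03% and with a SOX match 2.89%, and among distal peaks the SOX share was 8.62% against 8.93% elsewhere. The central 200 bp also gave 0.825% for ESRRB, 2.06% for KLF, 1.65% for CTCF and 0% for OCT4::SOX2. These windows are shorter by construction.

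Keeping only peaks of at least 300 bp gave 92.2 peaks per Mb, a GC content of 44.1%, a multicopy share of 12.4% and a promoter-proximal share of 26.9%. Distal peaks had a median width of 320 bp and a GC content of 41.8%. The promoter-proximal share was 9.28% with protein-coding TSS and 15.7% within 500 bp. The density was 134 per Mb without multicopy peaks and 187 from the first to the last Zfp gene. The multicopy share depended most on its definition, at 29.7% with 50-mers, 50.9% with 31-mers and 0.825% when 90% of 75-mers had to be repeated, each above the rest of chromosome 4 (0.958%, 3.10% and 0.0456%). At 95% identity 89 peaks were in families.

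The reference carries the copies that its assembly holds, with 6 gaps in the stretch, and the number of copies in ZHBTc4 cells was not measured. Intervals assume independent peaks and are too narrow where copies share sequence.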
